A study of Mus musculus with 6 samples.

Results

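The lysosome and autophagy genes described here are 40 of the 24016 genes in a table of basal cells from mouse esophageal epithelium. They were chosen by symbol from their known function, with earlier results of these data known: cathepsins and other lysosomal hydrolases, their cofactors, lysosomal membrane proteins, the proton pump, the transcription factor Tfeb and the autophagy machinery. All 40 symbols had a row. The table holds FPKM, a level per kilobase of transcript and per unit of sequencing depth. Levels set side by side between genes or between libraries are approximate. Further scaling moved the differences, and the share of genes at 1 FPKM or more varied with transcript length (both below).

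Lysosomes are acidic organelles in which hydrolases break down protein, glycan and lipid. A proton pump in the lysosomal membrane acidifies them, and the new enzymes reach them from the Golgi. Autophagy delivers cytoplasmic material to them: a kinase complex and a lipid kinase complex start a membrane cup, conjugation enzymes attach proteins of the Atg8 family to its lipid, and receptors bound to Atg8 proteins bring the cargo. In stratified epithelia, keratinocytes lose their organelles late in differentiation, after they have left the basal layer. Cathepsins take part in processing proteins of the differentiating layers.

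All mice carried Krt15-CrePR1;R26mTomato/mGFP, in which the Krt15 promoter drives an inducible Cre recombinase and recombination switches a membrane reporter from Tomato to GFP. All had received 1 mg of RU486, which activates this Cre, 24 h before sorting. The Krt15-positive group (CD29high GFP+, 3 libraries) and the Krt15-negative group (CD29high GFP-, 3 libraries) therefore share genotype and treatment and differ by GFP, which records recombination and not the level of Krt15. A basal cell in which the Cre did not act stays GFP-negative. The labels state no age, sex, number of animals or pooling. The p-values therefore reflect only how far these libraries scatter, and that scatter may be technical. The comparison asks how the transcriptomes of the sorted populations differ.

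The depth, read from the smallest step between values, was about 27.6 to 42.2 M fragments (M, mega) per library. The Krt15-negative replicate 1 library stood apart: 33.8% of the 9423 tested genes reached 1 FPKM there, against 70.5% to 88% in the other 5. All 8 basal keratinocyte markers were above 0 in every library, although Trp63 stood at 0.459 FPKM and Itgb1, which encodes CD29, at 1.03 FPKM in that library. The keratin genes Krt15, Krt5 and Krt14 differed by 0.18, 0.05 and 0.02 on the log2(FPKM + 1) scale, none past the test. Upper-quartile scaling gave -0.29, -0.41 and -0.45. Median-of-ratios scaling gave 0.315, 0.187 and 0.156, and quantile normalization 0.53, 0.26 and 0.35. Of 8 suprabasal markers, 6 or 7 reached 1 FPKM in each library, with summed levels of 8914 to 53070 FPKM, so the basal label is not exclusive. Fibroblast markers moved with the groups, 7 to 9 of 9 reaching 1 FPKM in the Krt15-negative libraries and 1 or 2 of 9 in the Krt15-positive ones, with summed levels of 176 to 788 and 71.3 to 179 FPKM. Most of the Krt15-positive sums came from 1 gene, Dcn, at 167, 176 and 71.1 FPKM in replicates 1 to 3. The part of the fibroblast markers in the differences below was not tested. In bulk samples such as these, fewer cells of a type and less RNA per cell cannot be told apart.

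Promoter sequences were available for 33 of the 40 genes (RefSeq, GRCm38.p6, 250 bases before to 50 after each start site). The letters CACGTG, an E-box that lies at the centre of the element bound by TFEB and its relatives, were found in 10 of these 33 genes (30.3%), in 12.5% of 7080 tested genes and in 8.09% of all 27025 gene symbols with a promoter. The longer form GTCACGTG, searched on both strands, was in 6 of 33 (18.2%, against 5.28% of tested genes) and TCACGTGA in 4 of 33 (12.1%, against 2.5%). These forms contain CACGTG and overlap each other. The stretches below are shown because they belong to the 7 genes that hold a longer form, from the aspartic protease Ctsd to the autophagy enzyme Atg7. Capitals mark the longest run covered by the motifs, in Lamp1 each of its 4 copies of CACGTG, and sequences run 5′ to 3′ on the strand of the gene.
Lamp1, chr8:13159094-13159153, + strand: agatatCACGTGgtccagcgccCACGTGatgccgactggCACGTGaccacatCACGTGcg
Ctsd, chr7:142387904-142387941, - strand: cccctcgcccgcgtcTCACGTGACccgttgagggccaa
Ctsa, chr2:164833749-164833778, + strand: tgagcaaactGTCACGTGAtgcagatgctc
Atp6v0d1, chr8:105566050-105566079, - strand: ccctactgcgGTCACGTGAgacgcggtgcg
Atp6v1a, chr16:44139369-44139406, - strand: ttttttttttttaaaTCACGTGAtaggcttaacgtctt
Glb1, chr9:114401014-114401051, + strand: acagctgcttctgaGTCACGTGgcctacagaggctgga
Atg7, chr6:114670948-114670985, + strand: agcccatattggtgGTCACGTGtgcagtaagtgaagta

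The other 3 genes with CACGTG were Ctsl, Gaa and Atg5. The 4 copies in Lamp1 began between 61 and 15 bases before the start site. Ctsd and Ctsa held 2 copies each, those of Ctsd beginning at -245 and -98. A match is a run of letters and not a measured binding site. The 10 genes with CACGTG had a median difference (Krt15-positive minus Krt15-negative) of 0.04 on the log2(FPKM + 1) scale, with 5 of 10 above 0. The 19 tested genes whose promoter lacked it had a median of 0.55, with 13 above 0. Without Krt15-negative replicate 1 these medians were -0.53 and 0.03. No test was made of this split.

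No tested lysosome or autophagy gene differed between the groups beyond the spread between libraries. A mean of at least 1 FPKM was reached by 36 of the 40, which were tested in the limma fit of all 9423 genes (log2(FPKM + 1), Benjamini-Hochberg adjustment over all genes). None of the 36 had a limma adjusted p below 0.05, the smallest being 0.79, where 0% of all tested genes passed. At an unadjusted limma p below 0.05 there were also 0 of 36 members, against 3.93% of all tested genes. In none of the 36 did the 3 Krt15-positive libraries lie wholly above or wholly below the 3 Krt15-negative ones, against 8.85% (above) and 2.44% (below) of all tested genes.

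The differences of the 36 ranged from -1.55 to 2.32, with a median of 0.48 beside 0.63 over all tested genes, and 25 of 36 (69.4%) were above 0 beside 68.6% of all. Both medians turned on the Krt15-negative replicate 1 library. Without it, the members' median was -0.24 and that of all genes 0.02, with 16 of 36 members above 0 (44.4%, beside 50.9% of all genes). Scaling also moved the medians: those of the members and of all genes were 0.20 and 0.48 with upper-quartile scaling, 0.61 and 0.71 with median-of-ratios scaling, and 0.20 and 0.04 with quantile normalization. That library held the lowest value of the 6 for 25 of the 36 tested members and the highest for 4, namely Cd63, Gabarap, Ctsl and Neu1. In 13 members it stood below 1 FPKM while all 5 other libraries stood at 1 FPKM or more. These counts were not made over all genes. In that library 47.2% of tested members reached 1 FPKM, beside 33.8% of all tested genes, so low values there were not particular to the members.

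**Figure D1:**
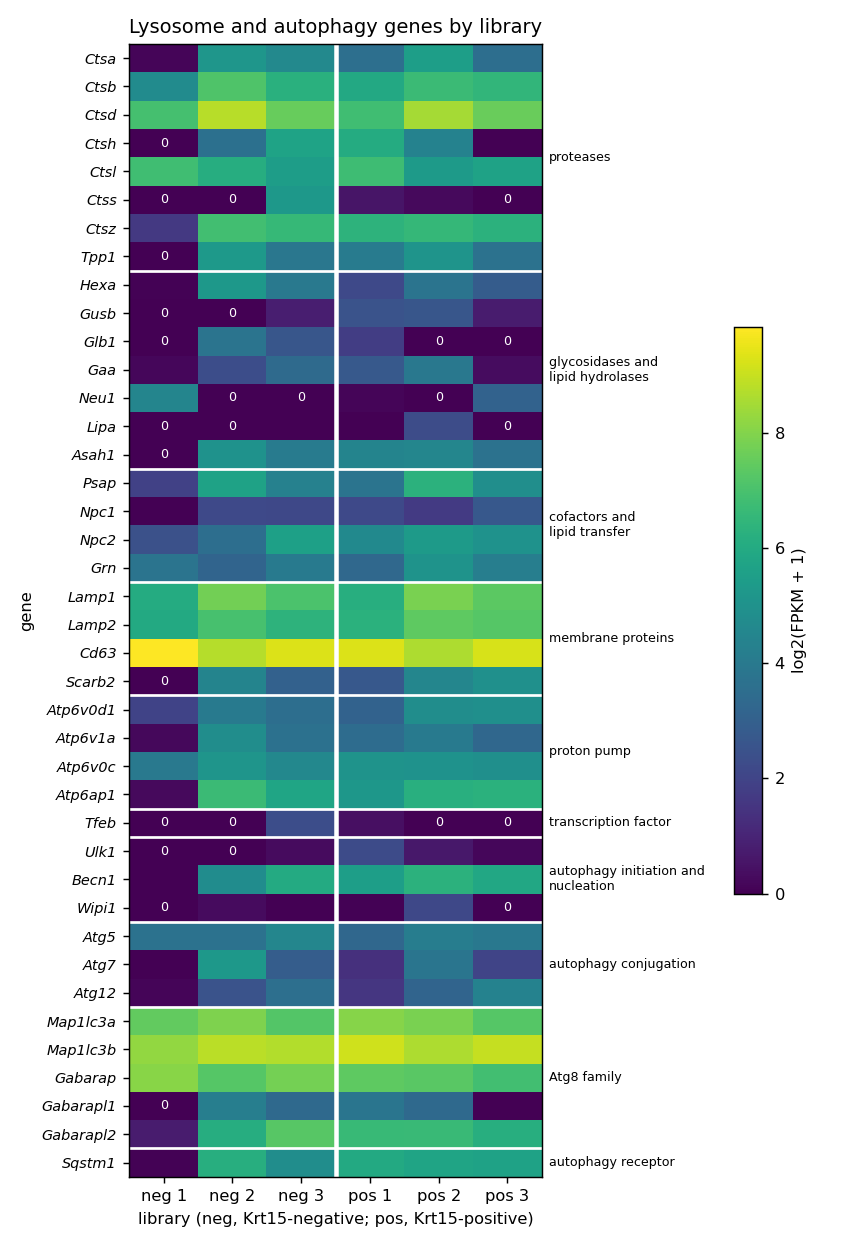
Level of each of the 40 genes (rows, grouped by role) in the 6 libraries (columns, 3 Krt15-negative and 3 Krt15-positive) as log2(FPKM + 1), with 0 printed where a gene is listed at 0. The Krt15-negative replicate 1 column is dark for 23 genes below 1 FPKM, while Cd63, Map1lc3b, Ctsd and Lamp1 are bright in all 6 columns.

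By level, 7 of the 40 genes had a mean of 100 FPKM or more over the 6 libraries. In order these were Cd63 (603 FPKM), Map1lc3b (438), Ctsd (237), Map1lc3a (203), Gabarap (179.6), Lamp1 (146) and Lamp2 (111). Neighbours in this order overlapped in their ranges over libraries, so the order is not resolved at each step. The steadiest levels were also among these genes. Map1lc3a and Map1lc3b ranged 1.81-fold and 1.82-fold from lowest to highest library, Cd63 2.35-fold and Gabarap 2.36-fold. Lower in level, the pump subunit gene Atp6v0c (2.29-fold) and the conjugation gene Atg5 (2.45-fold) varied as little.

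Among the proteases, Ctsd, which encodes the aspartic protease cathepsin D, was the most abundant. It stood at 121, 440.5 and 188 FPKM in Krt15-negative replicates 1 to 3 and at 112, 368 and 194 FPKM in Krt15-positive replicates 1 to 3. Both replicate 1 libraries were low and both replicate 2 libraries high, and the groups overlapped (difference -0.10, SE 0.70, 95% CI -1.63 to 1.43, limma adjusted p = 0.97). The difference was 0.03 with median-of-ratios scaling, 0.06 with quantile normalization, 0.41 when Krt15-negative replicate 2 was left out, 0.31 when Krt15-positive replicate 1 was, and -0.52 when Krt15-negative replicate 1 was. Ctsd made up 25.4% to 55.1% of the summed cathepsin FPKM in the 6 libraries.

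Ctsb, encoding the cysteine protease cathepsin B, stood at 26, 139 and 74.8 FPKM among Krt15-negative libraries, beside 60.4, 103 and 88.4 FPKM among Krt15-positive ones. Apart from the low first value the libraries ranged from 60.4 to 139 FPKM, and the groups overlapped. The Ctsb difference was 0.33 (SE 0.86, limma adjusted p = 0.93), or -0.31 without Krt15-negative replicate 1 and -0.12 with upper-quartile scaling. Ctsl, encoding the cysteine endopeptidase cathepsin L, had the opposite pattern, with 113, 69.7 and 43.6 FPKM against 110.4, 39.97 and 50.1 FPKM. Here both replicate 1 libraries were the high ones, and Ctsl reached 43.1% and 24.9% of cathepsin FPKM in them, against 5.98% to 11.8% in the other 4. The Ctsl groups overlapped (difference -0.21, SE 0.84, limma adjusted p = 0.96), and the difference was 0.13 without Krt15-negative replicate 1.

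Ctsz, encoding the carboxypeptidase cathepsin Z, stood between 79.4 and 117 FPKM in 5 libraries and at 2.1 FPKM in Krt15-negative replicate 1. Its difference of 1.38 (SE 1.29, limma adjusted p = 0.79) was -0.33 without that library. Ctsa, encoding the protective protein that stabilizes beta-galactosidase and neuraminidase, behaved likewise. It stood at 0.112, 35.4 and 24 FPKM among Krt15-negative libraries, beside 10.9, 44.5 and 10.7 FPKM among Krt15-positive ones (difference 0.89, SE 1.43, -0.70 without replicate 1). Tpp1, encoding a tripeptidyl peptidase, had a listed value of 0 in Krt15-negative replicate 1 and stood at 37.7 and 13.8 FPKM in the other Krt15-negative libraries. The Krt15-positive libraries had 16.3, 32.8 and 12 FPKM for Tpp1 (difference 1.25, SE 1.40, -0.28 without replicate 1).

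Ctsh and Ctss were each absent or near 0 in some libraries of both groups. Ctsh, encoding an aminopeptidase, had a listed value of 0 in Krt15-negative replicate 1 and stood at 11.4 and 51.3 FPKM in replicates 2 and 3. In the Krt15-positive libraries it stood at 66, 19.8 and 0.0212 FPKM, so the groups covered the same range (difference 0.38, SE 1.78, -1.18 without Krt15-negative replicate 1). Ctss, encoding cathepsin S of antigen-presenting cells, was detected above 1 FPKM only in Krt15-negative replicate 3, at 37.1 FPKM. It was listed at 0 in Krt15-negative replicates 1 and 2 and in Krt15-positive replicate 3, and stood at 0.481 and 0.182 FPKM in the other Krt15-positive libraries.

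The Ctss difference was -1.48 (SE 1.32, limma adjusted p = 0.79) and 0.27 without Krt15-negative replicate 3. That library also held the highest levels of the antigen presentation genes Cd74 (316 FPKM), H2-Aa (109) and H2-Ab1 (222), where the other 5 had at most 64.1, 4.85 and 69.4 FPKM. Of 14 leukocyte markers, 8 reached 1 FPKM in it and 3 to 8 in the others, with a summed level of 1050 FPKM, against 146 to 7322. The highest sum, in Krt15-positive replicate 1, came mainly from Lyz2 at 7279 FPKM, where Ctss stood at 0.481 FPKM. Other markers of that list went the other way. Tyrobp stood at 31 FPKM in Krt15-negative replicate 3, against 203 and 124 FPKM in replicates 1 and 2. Fcer1g and Laptm5 stood at 56.9 and 3.91 FPKM in it, against 107 and 21.3 FPKM in replicate 2, where Ctss was listed at 0. The Langerhans cell gene Cd207 was listed at 0 in all 6 libraries. The part of such cells in the Ctss value was not tested.

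**Figure D2:**
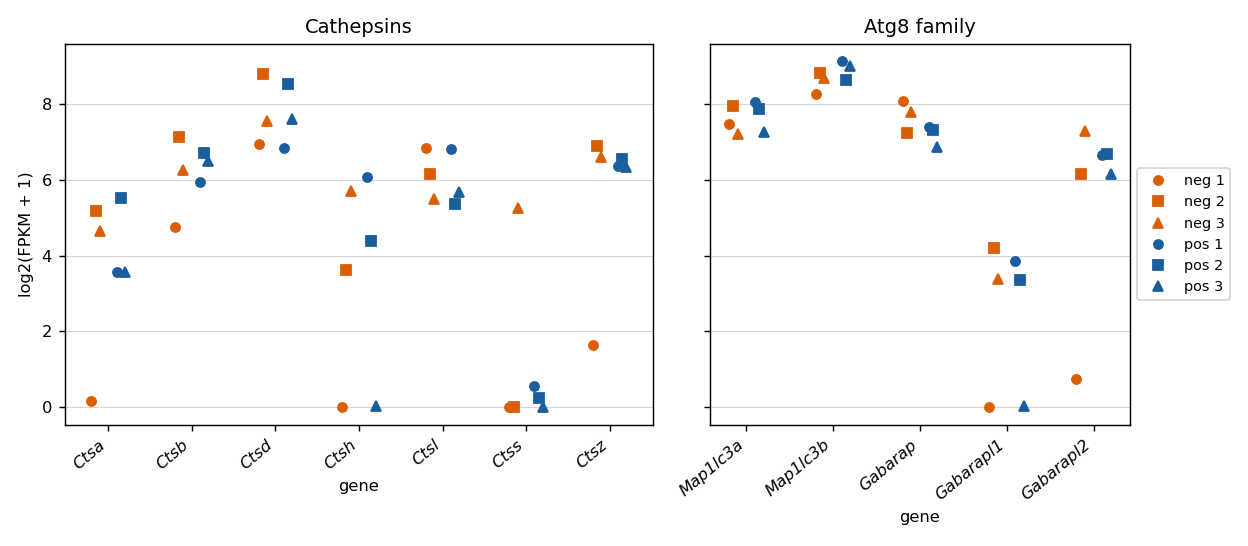
Levels of the 7 cathepsin genes (left) and the 5 Atg8 family genes (right) as log2(FPKM + 1), 1 point per library, Krt15-negative (neg) in orange and Krt15-positive (pos) in blue. Ctsd, Ctsb, Ctsl, Map1lc3a, Map1lc3b and Gabarap are present in all 6 libraries, while Ctsa, Ctsz and Gabarapl2 are low in Krt15-negative replicate 1 alone and Ctss is high in Krt15-negative replicate 3 alone.

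None of the glycosidases and lipid hydrolases had a mean above 17 FPKM over the 6 libraries, and 4 of their 7 genes were listed at 0 in 2 or more libraries. Asah1, encoding acid ceramidase, was the most abundant. It had a listed value of 0 in Krt15-negative replicate 1 and stood at 31.6 and 15.9 FPKM in replicates 2 and 3, and at 20.5, 22 and 11.98 FPKM among Krt15-positive libraries (difference 1.18, SE 1.38, -0.33 without replicate 1). Hexa, encoding a beta-hexosaminidase subunit, stood at 0.0382, 36.6 and 14.8 FPKM against 3.45, 13 and 6.23 FPKM. Outside Krt15-negative replicate 1, both remaining Krt15-negative values of Hexa exceeded all 3 Krt15-positive ones, and its difference of -0.15 became -1.67. Leaving out Krt15-negative replicate 2 or 3 gave 0.92 or 0.29, and leaving out Krt15-positive replicate 1 gave 0.24.

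Glb1, encoding the beta-galactosidase read out in senescence staining, had a listed value of 0 in Krt15-negative replicate 1 and in Krt15-positive replicates 2 and 3. It stood at 12.9 and 5.27 FPKM in Krt15-negative replicates 2 and 3 and at 2.45 FPKM in Krt15-positive replicate 1. The difference was -1.55 (SE 1.18, limma adjusted p = 0.79). Without Krt15-negative replicate 1 it was -2.63, the one member with an unadjusted limma p below 0.05 there (0.041, limma adjusted p = 0.88). Neu1, encoding the lysosomal sialidase, stood at 21.5 FPKM in Krt15-negative replicate 1 and was listed at 0 in replicates 2 and 3. In the Krt15-positive libraries Neu1 stood at 0.102, 0 and 7.55 FPKM (difference -0.42, SE 1.39, 1.08 without Krt15-negative replicate 1). Ctsa, Glb1 and Neu1 encode the members of 1 enzyme complex, and no library held all 3 of them at 1 FPKM or more.

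Gusb, encoding beta-glucuronidase, had the smallest p of the tested members before adjustment, without passing the test (limma adjusted p = 0.79). It passed the filter on low values only through the Krt15-positive group. It was listed at 0 in Krt15-negative replicates 1 and 2 and stood at 0.786 FPKM in replicate 3, against 4.75, 5.26 and 0.667 FPKM in the Krt15-positive libraries. The groups overlapped through the replicate 3 libraries, and the difference was 1.69 (SE 0.94, 95% CI -0.36 to 3.75). It ranged from 1.35 to 2.31 when 1 library was left out, and was 3.71 with a pseudocount of 0.1 and 0.66 with 5. Gaa, encoding the acid alpha-glucosidase that degrades glycogen, ranged from 0.131 to 14.4 FPKM (difference 0.36, SE 1.33, -0.54 without Krt15-negative replicate 1 and -0.44 without Krt15-positive replicate 2). Lipa, encoding acid lipase, did not reach the mean of 1 FPKM, having 3.85 FPKM in Krt15-positive replicate 2 and at most 0.0243 FPKM elsewhere.

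All 4 cofactor and lipid transfer genes were above 0 in every library. Psap, encoding the precursor of the saposins that help hydrolases reach sphingolipids, stood at 2.72, 50.3 and 18.8 FPKM among Krt15-negative libraries, beside 12.9, 78.8 and 28.5 FPKM among Krt15-positive ones. Replicate 2 was the highest of each group, and the difference of 1.04 (SE 1.23, limma adjusted p = 0.83) was 0.0051 without Krt15-negative replicate 1. Npc2, encoding the soluble sterol carrier of the lysosome, stood at 4.48, 10.7 and 47.3 FPKM against 24.7, 39.8 and 31 FPKM (difference 1.15, SE 1.10, limma adjusted p = 0.80). Npc1, its membrane partner, had a mean level of 3.02 FPKM beside 26.3 FPKM for Npc2, and Grn, encoding progranulin, stood between 7.92 and 31.9 FPKM with no low library (difference 0.53, SE 1.05).

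The lysosomal membrane proteins held the most abundant gene of all 40. Cd63, encoding a tetraspanin of late endosomes and exosomes, stood at 917, 426 and 641 FPKM among Krt15-negative libraries, beside 644, 391 and 601 FPKM among Krt15-positive ones. Replicate 2 was the lowest of each group and the ranges overlapped (661 ± 246 and 545 ± 136 FPKM, SD, n = 3). The difference was -0.24 (SE 0.45, 95% CI -1.22 to 0.74, limma adjusted p = 0.89), and 0.03 without Krt15-negative replicate 1.

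Lamp1 and Lamp2, encoding the heavily glycosylated proteins that line the lysosomal membrane, stood at 62.7 FPKM or more in every library. Lamp1 stood at 65.1, 216 and 130.2 FPKM against 70.6, 232 and 164 FPKM (difference 0.18, SE 0.76). Leaving out Krt15-negative replicate 1 gave -0.27, leaving out Krt15-positive replicate 2 gave -0.18, and upper-quartile scaling gave -0.28. Within each group its order of libraries was that of Ctsd, with replicate 1 low and replicate 2 high. Lamp2 stood at 62.7, 124 and 80.6 FPKM against 77.8, 168 and 152 FPKM (difference 0.55, SE 0.72, 0.33 without Krt15-negative replicate 1). Scarb2, encoding the receptor that carries glucocerebrosidase to lysosomes, was lower. It was listed at 0 in Krt15-negative replicate 1, stood at 20.9 and 7.32 FPKM in the others of that group and at 5.56, 22 and 29.98 FPKM among Krt15-positive libraries (difference 1.56, SE 1.36, 0.31 without replicate 1).

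Of the proton pump members, Atp6ap1, an accessory subunit, was the most abundant and depended most on 1 library. It stood at 0.193, 104.9 and 54.5 FPKM among Krt15-negative libraries, beside 35.9, 72.1 and 76 FPKM among Krt15-positive ones. The difference was 1.63 (95% CI -1.64 to 4.90, limma adjusted p = 0.79), or -0.37 without Krt15-negative replicate 1. Atp6v0c, the proteolipid of the membrane ring, stood at 14.8, 33.8 and 23.2 FPKM against 32.6, 31.7 and 28.9 FPKM (difference 0.44, SE 0.94, -0.0092 with upper-quartile scaling). Atp6v0d1, which couples the membrane part to the stalk, ranged from 2.89 to 28.6 FPKM, and Atp6v1a, the catalytic subunit, from 0.156 to 27.6 FPKM (differences 1.10 and 0.69, and 0.50 and -0.66 without Krt15-negative replicate 1).

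The 11 other pump subunits on the pathway list were set beside these 4. None passed the test, 4 were above 0 and 7 below, and their median difference was -0.07 (-0.53 with upper-quartile scaling, 0.07 with median-of-ratios scaling, 0.21 with quantile normalization and -0.27 without Krt15-negative replicate 1). The FPKM was uneven between subunit genes. Atp6v0e, Atp6v1f and Atp6v1g1, 3 small subunits, held 20% to 36.7%, 15.8% to 28.6% and 15.5% to 29.5% of the FPKM summed over the 15 genes. Atp6v1a, by contrast, held at most 1.12% in any library, and Atp6v0a1, a form of the large membrane subunit, at most 0.316%. Short genes reached 1 FPKM more often than long ones, to a degree that varied by library. In Krt15-negative replicate 3 it was 91.1% up to 1000 bases against 68% over 3000. In Krt15-positive replicate 2 it was 90.9% against 85.4%. Atp6v0c, with a length of 989 bases, held 0.605% to 1.37% of the summed FPKM. The part of transcript length in these shares was not tested.

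Tfeb, the transcription factor of lysosomal genes, was at or near 0 outside Krt15-negative replicate 3. It stood at 4.04 FPKM in Krt15-negative replicate 3 and 0.339 FPKM in Krt15-positive replicate 1 and was listed at 0 in the other 4, a mean below the limit for testing. Of its relatives on the pathway list, Tfe3 stood between 1.8 and 10.6 FPKM in 3 libraries and was listed at 0 in the other 3. Mitf was listed at 0 in all 6.

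Autophagy initiation genes spanned a wide range of levels. Ulk1, the initiating kinase, and Wipi1, which binds the lipid made by the lipid kinase complex, did not reach a mean of 1 FPKM. Ulk1 had its highest value, 3.74 FPKM, in Krt15-positive replicate 1, and Wipi1 its highest, 3.39 FPKM, in Krt15-positive replicate 2. Becn1, encoding beclin 1 of the lipid kinase complex, had the largest difference of the 36. It stood at 0.0174, 26.6 and 62.9 FPKM among Krt15-negative libraries, beside 45.4, 79 and 59 FPKM among Krt15-positive ones. The groups overlapped, and the difference of 2.32 (SE 1.42, 95% CI -0.79 to 5.43, limma adjusted p = 0.79) was 0.53 without Krt15-negative replicate 1.

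The conjugation genes differed in steadiness. Atg5, whose product is joined to Atg12 to promote Atg8 lipidation, stood at 12.2, 12.1 and 21.6 FPKM against 8.85, 17.2 and 14.4 FPKM (15.3 ± 5.46 and 13.5 ± 4.25 FPKM, SD, n = 3). Its difference was -0.17 (95% CI -2.41 to 2.07), and no library stood apart. Atg12 stood at 0.0981, 4.67 and 11.1 FPKM against 1.96, 8 and 19.4 FPKM (difference 0.95, SE 1.30, -0.02 without Krt15-negative replicate 1). Atg7, the activating enzyme for both Atg12 and Atg8 proteins, ranged from 0.0182 to 36.9 FPKM, with both extremes in Krt15-negative libraries (difference -0.32, SE 1.45, -1.67 without replicate 1, 0.94 without replicate 2 and 0.19 without Krt15-positive replicate 1).

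In the Atg8 family, Map1lc3b was the most abundant gene in every library. It encodes LC3B, the protein commonly used to mark autophagosomes, and stood at 306, 453 and 413 FPKM among Krt15-negative libraries, beside 556, 395 and 506 FPKM among Krt15-positive ones. The groups overlapped at 390.3 ± 76 and 486 ± 82.4 FPKM (SD, n = 3). The difference was 0.32 (SE 0.45, 95% CI -0.66 to 1.30, limma adjusted p = 0.85), and -0.14 with upper-quartile scaling. Map1lc3b made up 40.6% to 60.2% of the FPKM of the 5 genes.

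Map1lc3a, encoding LC3A, stood at 177, 244 and 146 FPKM against 265, 233 and 151 FPKM (difference 0.18, SE 0.59, -0.28 with upper-quartile scaling). Gabarap, of the second branch of the family, stood at 269.8, 149 and 219 FPKM against 168, 158 and 114 FPKM. Its Krt15-negative mean was the higher, 213 ± 60.5 against 147 ± 28.3 FPKM (SD, n = 3), yet the ranges overlapped and the difference was -0.51 (SE 0.61, 95% CI -1.84 to 0.82, limma adjusted p = 0.83). Gabarap held 35.8% of the family's FPKM in Krt15-negative replicate 1 and 13.6% to 23.2% in the other 5 libraries.

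The remaining members of the family were less even. Gabarapl2 stood at 0.67, 69.7 and 154 FPKM against 99.5, 102 and 70.4 FPKM (difference 1.78, SE 1.45, limma adjusted p = 0.79), and its difference was -0.21 without Krt15-negative replicate 1. Gabarapl1 had a listed value of 0 in Krt15-negative replicate 1 and stood at 17.3 and 9.37 FPKM in the others, against 13.4, 9.18 and 0.0193 FPKM (difference -0.12, SE 1.48). The receptor gene Sqstm1, encoding p62, which binds ubiquitinated cargo and Atg8 proteins, stood at 0.0371, 71.8 and 27.5 FPKM against 61.6, 52.9 and 50.3 FPKM. Its Krt15-positive values lay inside the Krt15-negative range, and the difference of 2.11 (SE 1.43, limma adjusted p = 0.79) was 0.29 without Krt15-negative replicate 1.

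**Figure D3:**
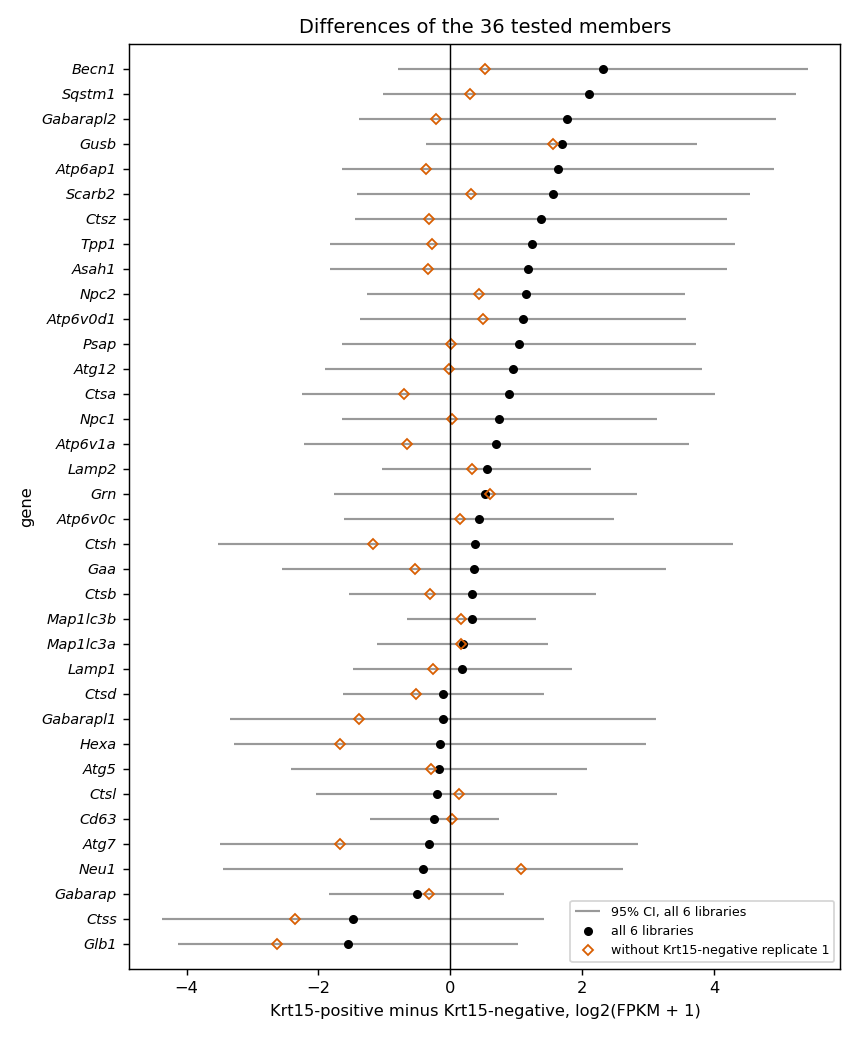
Difference (Krt15-positive minus Krt15-negative, log2(FPKM + 1)) of each of the 36 tested genes with its 95% confidence interval from limma over 6 libraries (black points, grey lines), and the same without Krt15-negative replicate 1 (orange diamonds). All 36 intervals include 0, and the diamonds of Becn1, Sqstm1, Gabarapl2 and Atp6ap1 lie far below their points (Becn1 2.32 to 0.53).

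The intervals differed in width. Those of Cd63 and Map1lc3b ended at 0.74 and 1.30 on the log2 scale, whereas those of Becn1, Sqstm1, Gabarapl2 and Atp6ap1 reached 4.90 to 5.43. For the latter genes these libraries do not bound the difference closely. The same holds for genes whose estimates lay nearer to 0. Among them, the interval of Ctsh ran from -3.52 to 4.28 and that of Gabarapl1 from -3.35 to 3.11. Those of Atg7 and Hexa ran from -3.49 to 2.85 and from -3.27 to 2.97.

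Members below 1 FPKM in Krt15-negative replicate 1 rested on very few fragments there. Taking genes with 1 annotated transcript, Hexa corresponded to about 2 fragments, Npc1 to about 1, Atg12 to about 13 and Gabarapl2 to about 32, out of about 28.9 M. Atg5 corresponded to about 831 fragments and Map1lc3a to about 5684. In that library the share of tested genes at 1 FPKM or more depended on transcript length, from 66.4% of genes up to 1000 bases to 24.6% of genes over 3000 bases. The same shares were 84.7% and 62.7% in Krt15-negative replicate 2 and 81.3% and 70.2% in Krt15-positive replicate 3. Of the 10 tested members over 3000 bases, 3 reached 1 FPKM in Krt15-negative replicate 1, against 9 or 10 of 10 in each of the other 5. In the shorter classes, by rising length, 1 of 2, 6 of 11 and 7 of 13 members reached it in that library. The shares of all tested genes there were 66.4%, 38.2% and 27.7%. Classes of 2, 11 and 13 members are too small to be compared with these shares step by step. Length was taken as the median over annotated coding transcripts, and its part in the members' values was not tested.

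**Figure D4:**
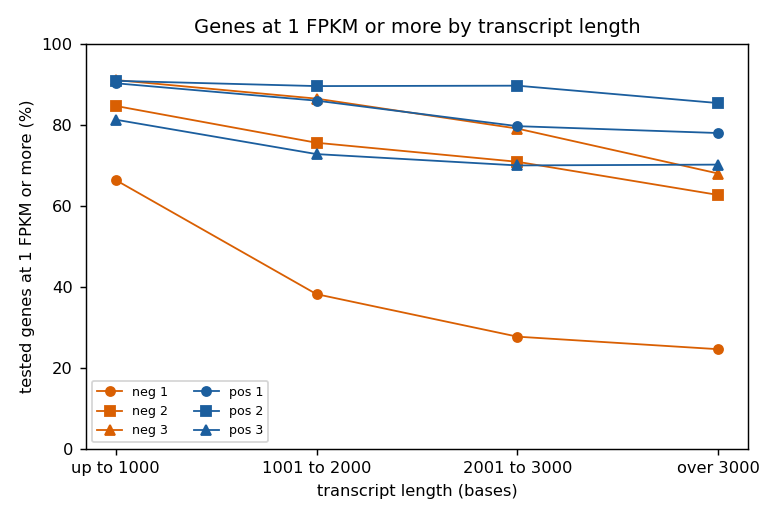
Percent of tested genes at 1 FPKM or more (vertical axis) in 4 classes of transcript length (horizontal axis), 1 line per library, Krt15-negative (neg) in orange and Krt15-positive (pos) in blue. The Krt15-negative replicate 1 line runs from 66.4% down to 24.6%, below the other 5 in every class.

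Beyond the 40 members, 92 further genes of the pathway were examined, and 75 of them were tested. With limma, 0 of 75 passed at an adjusted p below 0.05, and 3 had an unadjusted p below 0.05, all higher in Krt15-positive libraries, where 3.18% of all tested genes were higher at that level. Their median difference was 0.95, with 56 of 75 above 0 (74.7%). Without Krt15-negative replicate 1 these were 0.17 and 43 of 75. The groups did not overlap in 8 genes that were higher (against 8.85% of all tested genes) and in 1 that was lower (against 2.44%), Lamtor4 of the lysosomal Ragulator complex, named after its values were seen.

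The 3 genes of smallest p, chosen by that p, were Atg13, Pik3c3 and Tsc2. Atg13, a partner of the initiating kinase, was listed at 0 in Krt15-negative replicates 1 and 2 and stood at 0.732 FPKM in replicate 3, against 4, 17.9 and 8.86 FPKM in the Krt15-positive libraries. The difference was 3.02 (SE 1.05, unadjusted p = 0.014, limma adjusted p = 0.79) and 2.89 without Krt15-negative replicate 1. Pik3c3, the lipid kinase that works with beclin 1, had 0, 0 and 0.485 FPKM against 4.63, 6.01 and 4.48 FPKM (difference 2.40, SE 0.92, limma adjusted p = 0.79). Tsc2, an inhibitor of mTORC1 signalling, did not exceed 0.441 FPKM among Krt15-negative libraries, beside 2.3, 4.75 and 5.13 FPKM among Krt15-positive ones (difference 2.11, SE 0.90, limma adjusted p = 0.79).

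All 3 stood below 1 FPKM in every Krt15-negative library and passed the filter on low values through the Krt15-positive group, so only a difference in this direction could have brought them into the test. The next genes by p were Wdr45, which binds the same lipid as Wipi1, Vmp1, a membrane protein of autophagosome formation, and Gnptg, a subunit of the enzyme that starts the mannose 6-phosphate tag. Wdr45 stood at 0.0484, 0 and 19 FPKM against 7.08, 23.5 and 47.6 FPKM, and Vmp1 at 0.025, 46.7 and 24.3 FPKM against 133, 49.5 and 56.6 FPKM. Gnptg was listed at 0 in Krt15-negative replicates 1 and 3 and stood at 90.8 FPKM in replicate 2, against 51.5, 37.1 and 31.6 FPKM. Their differences were 2.95, 2.76 and 3.16, each with a limma adjusted p of 0.79, and 2.25, 1.07 and 2.07 without Krt15-negative replicate 1. Ctsk, a cathepsin gene known from osteoclasts and fibroblasts, was listed at 0 in all 6 libraries.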

How the data were processed

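RNA of sorted CD29high cells was sequenced in 6 libraries, 3 Krt15-negative and 3 Krt15-positive, grouped by their labels. The authors deposited FPKM values per gene. The submitters' processing notes name STAR 2.5, Cufflinks 2.2.1, DESeq2 and mm9. Parameters are not stated there. The 27 rows whose symbols had become dates were left out, leaving 24016 genes.

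The 9423 genes averaging 1 FPKM or more were fitted on log2(FPKM + 1) with limma 3.58.1 (limma-trend, R 4.3.3), group being the only term. P-values were adjusted by Benjamini-Hochberg over all of them and called below 0.05, and intervals are at 95%. Differences on this scale understate the change of low genes. The fit was tested on simulated data, whose recovery rates are not given here. A gene that did not pass is not thereby shown to be unchanged. The fibroblast marker Mfap5, for example, differed by -5.86 and had a limma adjusted p of 0.58. The alternatives were other pseudocounts (0.1 and 5), filters, scalings, library weights, a replicate block and libraries left out. Upper-quartile scaling used the tested genes, and median-of-ratios scaling genes that reached 1 FPKM in each of the 6.

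The members and lists were chosen with earlier results of these data known. Values in every library are given for each cathepsin and Atg8 gene, for the most abundant gene and that of smallest p in each other role, and for tested members listed at 0. Some further members were added. Of the pathway genes, the 6 of smallest p are named. Approximate depth came from the step between the lowest FPKM values of 6114 genes with 1 transcript. Transcript lengths came from GENCODE vM21 and promoters from RefSeq (GRCm38.p6), not from mm9.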

Additional observations from a re-analysis of the deposited data

How the results depend on the processing

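With limma, 0 of the tested genes passed an adjusted p of 0.05 in the fit reported and in every alternative except library weights, where 8 passed, all lower in Krt15-positive libraries and none of them a member. In the fit reported 370 genes had an unadjusted p below 0.05. The members' median difference was 0.48, and ranged from -0.24 to 0.90 when 1 library was left out. Without replicate 1 of both groups it was -0.068, and with library weights 0.044, where 2 members had an unadjusted p below 0.05 against 0 in the fit reported and Ctss was -3.81.

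Of the 36 tested members, the 6 named pathway genes and the 5 genes used to check the cells, these differences changed sign. With a pseudocount of 0.1 Atg7 was 0.43 and Hexa 0.65. With quantile normalization Atg12 was -0.38, Cd63 0.075, Ctsa -0.23, Ctsd 0.057, Atp6v1a -0.54, Gaa -0.63 and Npc1 -0.46. With upper-quartile scaling Ctsb was -0.12, Krt14 -0.45, Krt15 -0.29, Krt5 -0.41, Map1lc3a -0.28, Map1lc3b -0.14, Atp6v0c -0.0092 and Lamp1 -0.28. With median-of-ratios scaling Ctsd was 0.033. With library weights Atg12 was -0.39, Ctsa -0.24, Ctsh -1.12, Ctsl 0.35, Gabarapl2 -0.20, Neu1 0.60, Npc2 -0.094, Atp6v1a -0.047, Gaa -0.51 and Lamp1 -0.035. Without replicate 1 of both groups Asah1 was -0.44, Atp6ap1 -0.031, Ctsa -0.38, Ctsb -0.093, Ctsh -2.47, Ctsz -0.30, Gabarapl2 -0.29, Krt14 -0.34, Map1lc3a -0.013, Neu1 1.55, Tpp1 -0.19, Atp6v1a -0.59 and Gaa -0.74. The cause was not tested.

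Leaving out 1 library gave these ranges where a sign changed: Asah1 -0.33 to 2.18, Atg12 -0.018 to 1.71, Atg5 -0.36 to 0.088, Atp6ap1 -0.37 to 2.87, Cd63 -0.52 to 0.028, Ctsa -0.70 to 1.81, Ctsb -0.31 to 0.87, Ctsd -0.54 to 0.41, Ctsh -1.18 to 2.11, Ctsl -0.64 to 0.13, Ctss -2.36 to 0.27. For the others they were Ctsz -0.33 to 2.30, Gabarapl1 -1.38 to 1.07, Gabarapl2 -0.21 to 3.06, Krt14 -0.37 to 0.48, Krt15 -0.41 to 0.60, Krt5 -0.52 to 0.48, Neu1 -1.43 to 1.08, Tpp1 -0.28 to 2.36, Atg7 -1.67 to 0.94, Atp6v1a -0.66 to 1.66, Gaa -0.54 to 1.36, Hexa -1.67 to 0.92 and Lamp1 -0.27 to 0.67. The alternatives for Atg7, Atp6v0c, Atp6v0d1, Atp6v1a, Gaa, Grn, Hexa, Lamp1, Lamp2 and Npc1 were added after seeing the data.

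With the replicate number as a block, 0 genes passed, 479 had an unadjusted p below 0.05 and the members' median stayed at 0.48. Deviations from the group means correlated at 0.128, 0.168 and 0.00886 for replicates 1, 2 and 3. Replicates 1 and 2 of each group correlated best with their own number, and replicate 3 did not. Values this small, from 3 libraries per group, cannot decide whether the libraries are paired. The fit reported did not pair them. Sample names of the same number share a code across groups, whose meaning the labels do not state. Between libraries of the same number, 6 of 36 members were higher in the Krt15-positive library in all 3 (Lamp1, Lamp2, Scarb2, Psap, Atg12 and Atp6v0d1, 16.7% beside 20.9% of all tested genes), and Cd63 alone was lower in all 3 (2.78% beside 6.34%).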
